A study of Mus musculus with 6 samples.

Results

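The 31 genes described here are markers of neural stem cells, glia and neurons, together with Cd44, a mark of the mesenchymal state of glioma. They were chosen by symbol, and all 31 were found among the 54532 Ensembl gene IDs of the count table. Their transcripts were measured by RNA sequencing in 6 tumours of G422, a mouse glioblastoma line, grown under the skin of Kunming mice, an outbred stock. In 3 tumours the cells were labelled shNgb, a hairpin named for neuroglobin, and in 3 they were labelled shVec, the vector control. All cells had been made stably by lentivirus, and no other treatment is given for either group. Whether a group came from 1 clone or a pool, whether each tumour came from its own mouse, and how old the mice were is not known from the labels. The p-values therefore measure the spread between these tumours. The cell line tag runs from G422-GBM to G427-GBM over the samples, while their titles and source give G422 throughout. The design text names Ngb itself, not a hairpin, as what the cells received, so the titles and sample labels were followed for both.

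A neural stem cell divides while holding its fate open through factors such as SOX2, and carries the filament protein nestin. Its daughters become neurons, astrocytes or oligodendrocytes, and each fate is read from its own set of transcripts: GFAP and glutamate transporters in astrocytes, OLIG1, OLIG2 and SOX10 in the oligodendrocyte lineage, doublecortin and synaptic proteins in neurons. Human glioblastomas mix these programs, and CD44 is a mark of their mesenchymal state.

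The libraries held 19630319 to 25620667 reads. Ngb had 18, 19 and 11 reads in the shNgb libraries, against 28, 23 and 13 in the shVec libraries, and the groups overlapped (log2 fold change -0.59, SE 0.42). A bulk tumour also holds host cells, so fewer cells of a type and less RNA per cell cannot be told apart in any value below. Levels of different genes are compared as the authors' FPKM, which divides by gene length, and differences between groups as CPM, the reads scaled to a common library size. Positions are those of GENCODE M21 (GRCm38).

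The tumours held a narrow set of these transcripts. A mean of at least 1 FPKM over the 6 tumours was reached by 7 of the 31 members, or 22.6%, against 47.1% of 21995 protein-coding genes. In falling order of mean level these were Nes, Sox9, Cd44, Sox2, Tubb3, Cnp and Ncam1. Another 7 members, Pou3f2, Olig1, Olig2, Aqp4, Ptprz1, Dcx and Snap25, had 0 reads in every library, 22.6% of the members against 24.5% of protein-coding genes. A further 9 never exceeded 9 reads, namely Prom1, Fabp7, Sox10, Gfap, S100b, Slc1a2, Slc1a3, Ncan and Rbfox3. In all, 51.6% of members and 39.1% of protein-coding genes stayed under 10 reads in every library. With 0 reads a library allows up to 3 reads, which is 0.117 to 0.153 CPM at these depths and covers counting error only. By these genes the tumours carried a stem cell filament and SOX factors, with few or no reads of the defining transcripts of mature astrocytes, oligodendrocytes or neurons.

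**Figure D1:**
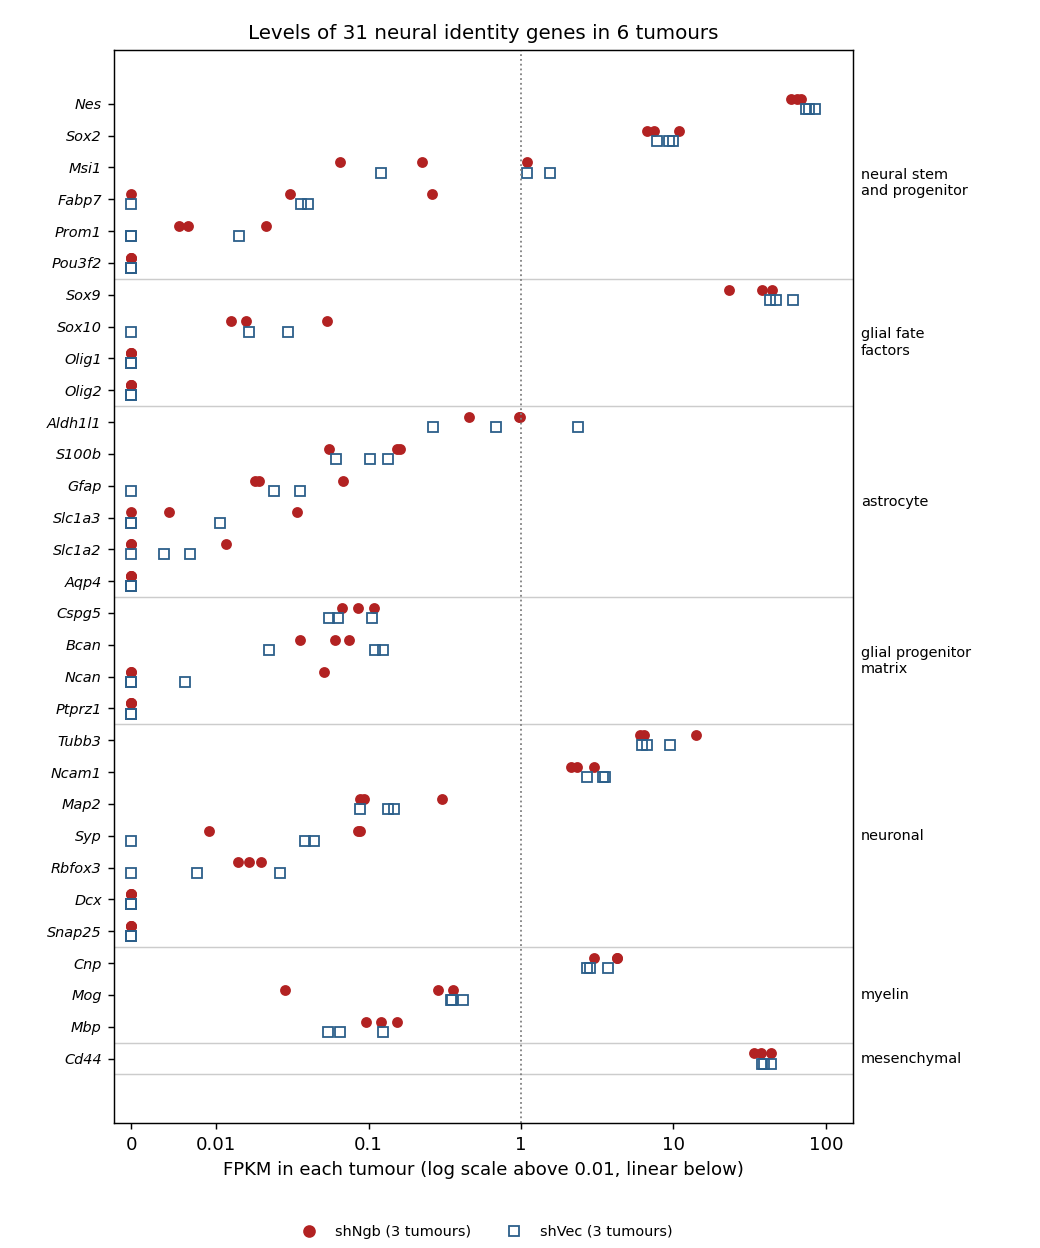
FPKM of each of the 31 members in the 3 shNgb tumours (filled circles) and the 3 shVec tumours (open squares), by role, with a dotted line at 1 FPKM. All 6 tumours lie right of the line in Nes, Sox2, Sox9, Tubb3, Ncam1, Cnp and Cd44, tumours fall on both sides of it in Msi1 and Aldh1l1, and 7 members sit at 0 in all 6 tumours.

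The promoters of 22 members were found in the RefSeq promoter table (build GRCm38.p6), each a window of 250 bases before and 50 after a RefSeq transcript start. In 18 of the 22 that start lay within 1000 bases of the 5′ end of the GENCODE gene, and in Gfap, Aldh1l1, Slc1a2 and Rbfox3 it lay further inside. Prom1 and Dcx have 2 windows, of which the one nearer the 5′ end was used. The 4 below are shown because Nes and Olig2, and likewise Cd44 and Dcx, are near in CpG ratio, and Nes and Cd44 were above 1 FPKM while Olig2 and Dcx had no read. They read 5′ to 3′ on the strand of the gene, with every CpG in capitals. Nes lies at chr3:87970843-87971142 (plus strand), Olig2 at chr16:91225300-91225599 (plus strand), Cd44 at chr2:102901616-102901915 (minus strand) and Dcx at chrX:143933170-143933469 (minus strand).
Nes: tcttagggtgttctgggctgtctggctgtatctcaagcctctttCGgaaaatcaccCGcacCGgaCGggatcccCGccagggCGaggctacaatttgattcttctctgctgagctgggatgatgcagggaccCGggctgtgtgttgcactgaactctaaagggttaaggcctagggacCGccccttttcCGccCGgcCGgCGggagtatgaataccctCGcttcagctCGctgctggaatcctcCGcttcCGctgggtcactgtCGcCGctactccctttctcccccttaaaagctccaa
Olig2: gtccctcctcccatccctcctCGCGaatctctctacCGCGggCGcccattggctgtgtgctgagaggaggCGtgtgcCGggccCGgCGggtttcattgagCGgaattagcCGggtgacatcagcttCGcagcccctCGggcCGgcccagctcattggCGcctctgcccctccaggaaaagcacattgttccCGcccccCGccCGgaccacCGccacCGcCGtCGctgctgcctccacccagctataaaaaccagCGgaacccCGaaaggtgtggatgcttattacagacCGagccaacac
Cd44: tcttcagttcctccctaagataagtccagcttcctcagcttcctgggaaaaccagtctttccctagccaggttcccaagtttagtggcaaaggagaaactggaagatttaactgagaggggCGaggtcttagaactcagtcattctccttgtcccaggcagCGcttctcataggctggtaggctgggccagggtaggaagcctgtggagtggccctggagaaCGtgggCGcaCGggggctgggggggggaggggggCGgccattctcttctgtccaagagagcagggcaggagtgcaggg
Dcx: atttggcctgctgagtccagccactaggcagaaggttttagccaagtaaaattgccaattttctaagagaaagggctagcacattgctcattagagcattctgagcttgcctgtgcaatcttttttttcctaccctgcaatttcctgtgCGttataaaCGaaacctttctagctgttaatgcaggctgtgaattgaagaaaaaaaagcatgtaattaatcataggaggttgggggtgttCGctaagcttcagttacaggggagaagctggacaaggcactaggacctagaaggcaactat
The Nes window holds 18 CpG, an observed over expected ratio of 0.702, and the Olig2 window 25, a ratio of 0.815. The Cd44 window holds 6 CpG (0.246) and the Dcx window 3 (0.219). Of the 10 members with a ratio of at least 0.6, a value reached by 35.8% of the 32851 windows of the table, 4 were above 1 FPKM, namely Nes, Sox2, Tubb3 and Cnp, and 3 had no read, namely Olig2, Pou3f2 and Ptprz1. Of the 12 under 0.6, 1 was above 1 FPKM, Cd44, and 1 had no read, Dcx. Gfap, Aldh1l1, Slc1a2 and Rbfox3, whose windows lie further inside the gene, are all among these 12. These counts are a description without a test.

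**Figure D2:**
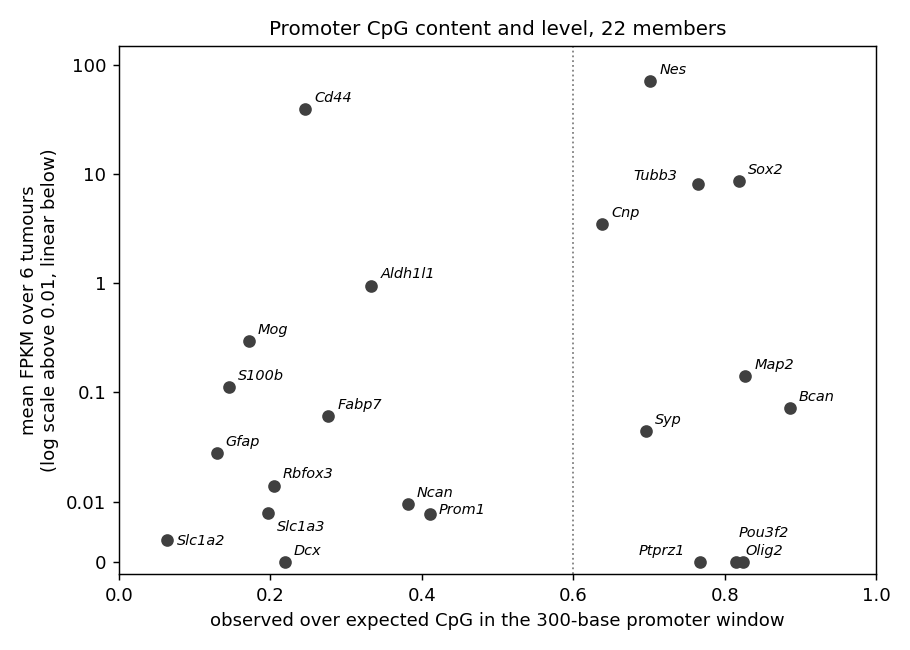
Observed over expected CpG in the 300-base promoter window (x axis) against the mean FPKM over 6 tumours (y axis) for the 22 members with a promoter entry; the dotted line marks a ratio of 0.6. Members above 1 FPKM and members at 0 stand on both sides of the line, with Nes and Olig2 on the right and Cd44 and Dcx on the left. Gfap, Aldh1l1, Slc1a2 and Rbfox3, whose windows lie further inside the gene, all stand on the left.

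Among the stem and progenitor genes, Nes and Sox2 were present in every tumour and the rest were scarce. Nes (chr3:87971078-87980451, plus strand) encodes nestin, the intermediate filament of neural progenitors, and is also made by endothelial and muscle precursor cells. It had 68.3, 58.9 and 64.8 FPKM in the shNgb tumours, against 74.1, 84.6 and 77.0 FPKM in the shVec tumours. It was the most abundant member and stood at the 95.4th percentile of the 15203 genes tested. All 3 shNgb values lay below all 3 shVec values. In CPM the means were 414 ± 28.7 in shNgb and 506 ± 35.3 in shVec tumours (SD, n = 3 each), a log2 fold change of -0.29 (SE 0.08, 95% interval -0.48 to -0.10). The edgeR adjusted p was 0.9997, so the difference was not called over all genes.

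Sox2 (chr3:34650405-34652461, plus strand), which encodes the transcription factor that holds neural stem cells undifferentiated, had 7.43, 10.8 and 6.66 FPKM in the shNgb tumours, against 9.87, 7.75 and 9.41 FPKM in the shVec tumours. The groups overlapped (log2 fold change -0.11, SE 0.20, 95% interval -0.55 to 0.34). Msi1, an RNA-binding protein of neural stem cells, had 27, 156 and 10 reads in the shNgb tumours, against 199, 14 and 126 reads in the shVec tumours. It was high in 1 shNgb and 2 shVec tumours and low in the others, so its spread lay within the groups. Its highest CPM was 23.7 times its lowest, the 17th largest such ratio among 13308 tested genes with a mean of at least 1 CPM, where the median ratio was 1.34. Msi1 gave a log2 fold change of -0.998 (SE 1.15), with an interval of -3.81 to 1.82 that settles no direction. With 1 library left out in turn it ran from -2.71 to -0.40.

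Prom1, the surface protein CD133 used to sort stem-like glioma cells, had 0 to 4 reads in a library. Fabp7, a fatty acid binding protein of radial glia, had 0, 8 and 1 reads in the shNgb tumours, against 1, 1 and 0 in the shVec tumours. Pou3f2, a POU factor of neural progenitors, had no read.

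Of the glial fate factors, Sox9 was abundant and the oligodendrocyte factors were silent. SOX9 starts gliogenesis in the neural tube and also acts in cartilage and hair follicles. Sox9 (chr11:112782224-112787760, plus strand) had 44.5, 38.3 and 23.3 FPKM in the shNgb tumours, against 61.2, 43.1 and 47.3 FPKM in the shVec tumours. shNgb replicate 3 was the lowest and shVec replicate 1 the highest, and the groups overlapped. Its mean CPM was 147 ± 45.1 in shNgb and 210 ± 39.2 in shVec tumours (SD, n = 3 each), with a log2 fold change of -0.51 (SE 0.25, 95% interval -1.11 to 0.09) and an edgeR adjusted p of 0.9997. Sox10, the SOX factor of the oligodendrocyte and Schwann lineages, had 0 to 4 reads, and Olig1 and Olig2, the basic helix-loop-helix factors of that lineage, had none.

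The astrocyte genes among the members were almost absent, although the line is labelled a glioblastoma. Gfap, the astrocyte filament, had 6, 2 and 2 reads in the shNgb tumours, against 0, 3 and 2 in the shVec tumours. S100b, a calcium-binding protein of glia that adipocytes also make, had 2 to 6 reads. The glutamate transporters Slc1a2 and Slc1a3 had 0 to 4 and 0 to 6 reads, and the water channel Aqp4 none. Aldh1l1, a folate enzyme used as an astrocyte marker, was the exception with 93, 108 and 54 reads in the shNgb tumours, against 235, 24 and 61 reads in the shVec tumours. Its levels were 0.990, 0.972 and 0.454 FPKM in the shNgb tumours, against 2.36, 0.266 and 0.684 FPKM in the shVec tumours, and both extremes fell in the shVec group. The difference was -0.46 on the log2 scale (SE 0.75, with a 95% interval of -2.27 to 1.35).

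The chondroitin sulphate proteoglycans of brain matrix were scarce. Cspg5, neuroglycan C, had 14, 21 and 29 reads in the shNgb tumours, against 14, 11 and 21 in the shVec tumours (log2 fold change 0.24, SE 0.40). Bcan, brevican, had 3, 6 and 8 reads in the shNgb tumours, against 2, 9 and 10 in the shVec tumours. Ncan, neurocan, had 9 reads in shNgb replicate 2 and 0 or 1 in every other library. Ptprz1, a receptor phosphatase of glial progenitors that carries the same sugar chains, had no read.

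Of the neuronal genes, a tubulin and an adhesion molecule were present while the synaptic and nuclear markers were not. Tubb3 (chr8:123411424-123422015, plus strand) encodes the neuronal beta tubulin, which many dividing tumour lines also make. It had 6.43, 6.03 and 14.1 FPKM in the shNgb tumours, against 9.43, 6.71 and 6.24 FPKM in the shVec tumours. shNgb replicate 3 stood above all others, and the other values of both groups were interleaved. The difference was 0.26 on the log2 scale (SE 0.35, with a 95% interval of -0.57 to 1.08), and it became -0.26 without that tumour.

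Ncam1 (chr9:49502136-49798925, minus strand), the neural cell adhesion molecule, which is also made by regenerating muscle and NK cells, had 3.02, 2.33 and 2.13 FPKM in the shNgb tumours, against 2.72, 3.47 and 3.53 FPKM in the shVec tumours. shNgb replicate 1 lay above shVec replicate 1, so the groups overlapped. The mean CPM was 21.8 ± 3.96 in shNgb and 28.2 ± 3.95 in shVec tumours (SD, n = 3 each), with a log2 fold change of -0.37 (SE 0.16, 95% interval -0.73 to -0.02) and an edgeR adjusted p of 0.9997. Map2, a dendritic microtubule protein, had 32, 122 and 38 reads in the shNgb tumours, against 32, 44 and 48 in the shVec tumours, with shNgb replicate 2 far above the rest. Its log2 fold change was 0.39 (SE 0.50) and became -0.44 without that tumour. Syp, a synaptic vesicle protein, had 0 to 12 reads, and Rbfox3, the NeuN antigen of mature neurons, 0 to 3. Doublecortin (Dcx), the microtubule protein of migrating young neurons, and Snap25, a fusion protein of synapses, had none.

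Of the myelin genes, Cnp was above 1 FPKM and the 2 structural genes were at trace level. Cnp (chr11:100574904-100591729, plus strand), a phosphodiesterase of oligodendrocytes that other cells also make, had 3.00, 4.29 and 4.25 FPKM in the shNgb tumours, against 3.74, 2.85 and 2.73 FPKM in the shVec tumours. The groups overlapped (log2 fold change 0.31, SE 0.19, 95% interval -0.13 to 0.76). Cnp shares 154 of its 3639 exon bases with Dnajc7 on the opposite strand, which had 3131 to 4057 reads in a library. The library kit does not mark strand, so part of the Cnp reads may belong to Dnajc7. Mbp, myelin basic protein, had 21, 20 and 34 reads in the shNgb tumours, against 12, 21 and 9 in the shVec tumours (log2 fold change 0.61, SE 0.42). Mog, a surface protein of mature myelin, had 1, 12 and 16 reads in the shNgb tumours, against 13, 12 and 14 in the shVec tumours (log2 fold change -0.68, SE 0.63), with shNgb replicate 1 apart from the other 5.

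Cd44 (chr2:102811141-102901665, minus strand), the hyaluronan receptor, was high and even. It had 37.3, 33.7 and 43.9 FPKM in the shNgb tumours, against 39.5, 43.4 and 38.2 FPKM in the shVec tumours, at the 90.3rd percentile of the genes tested. Its log2 fold change of -0.07 (SE 0.10) had the narrow interval of -0.31 to 0.16. Leucocytes and fibroblasts also make Cd44, and their share of these reads was not measured.

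**Figure D3:**
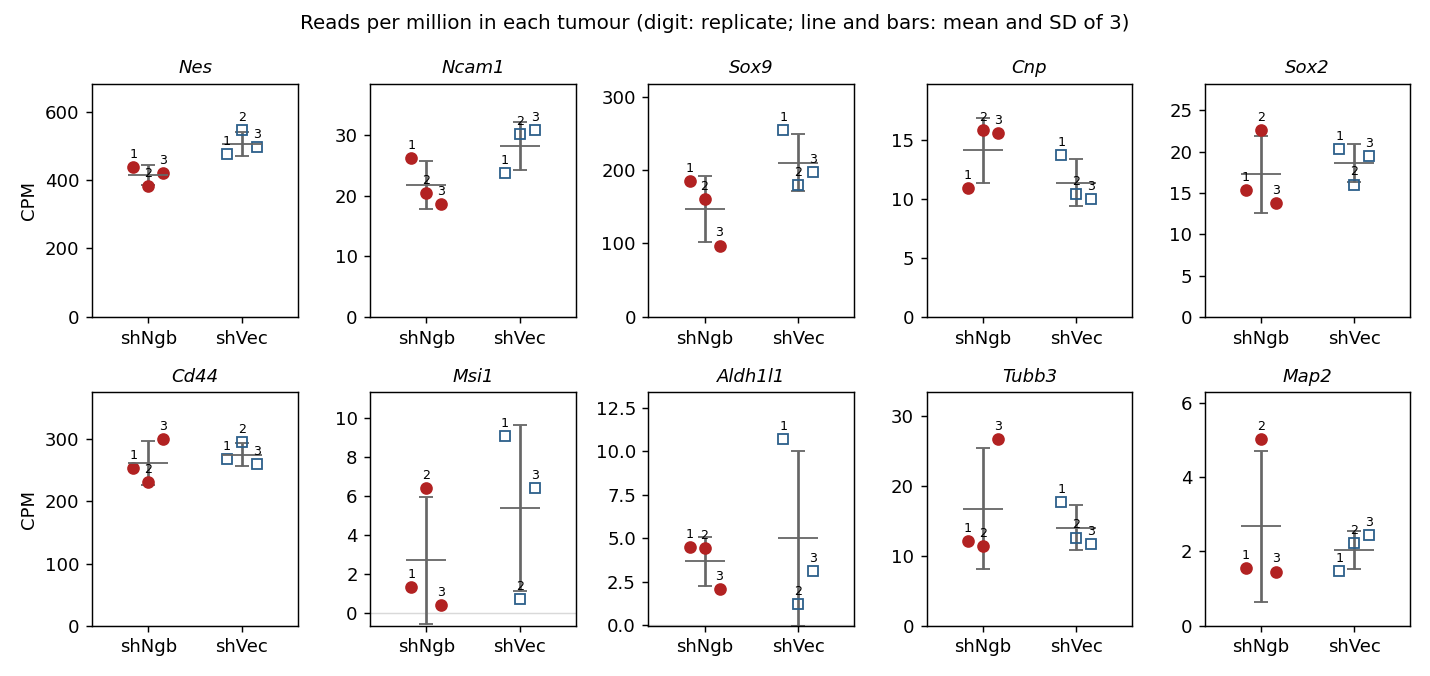
CPM of 10 members in each tumour, shNgb left of shVec, with the replicate number above each point and the mean and SD of 3 tumours. The groups do not overlap in Nes; in Msi1 and Aldh1l1 the tumours of each group lie far apart.

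Set side by side, no member was called different between the groups by the edgeR test. The expression filter kept 13 of the 31 members, and the other 18 had too few reads to be tested. At an adjusted p under 0.05, 0 of the 13 were called, against a background of 0% of 15203 genes in either direction. At an unadjusted p under 0.05, Nes and Ncam1 were lower in shNgb (edgeR, unadjusted p = 0.00652 and 0.0424), 2 of 13 members, against 1.22% of all tested genes in that direction and 2.58% in either. Without shNgb replicate 2 or 3 or shVec replicate 2 or 3, the unadjusted p of Ncam1 in edgeR was 0.111 to 0.134, while that of Nes stayed under 0.05 without any 1 library. Sox9 had an unadjusted p of 0.0104 in DESeq2 and 0.0404 in limma-voom. DESeq2 and limma-voom called 0 members. The groups did not overlap in 1 of the 13, Nes, which was lower in shNgb, against 3.43% of tested genes lower, 3.67% higher and 7.1% in either direction. The log2 fold change was positive in 5 of the 13 members, against 50.9% of all tested genes, and negative in 8, with a median of -0.11, against a median of 0.00 over all tested genes. In 8 of the 13 members, Msi1, Sox9, Aldh1l1, Cspg5, Tubb3, Map2, Mbp and Mog, the interval reaches past a 2-fold change.

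**Figure D4:**
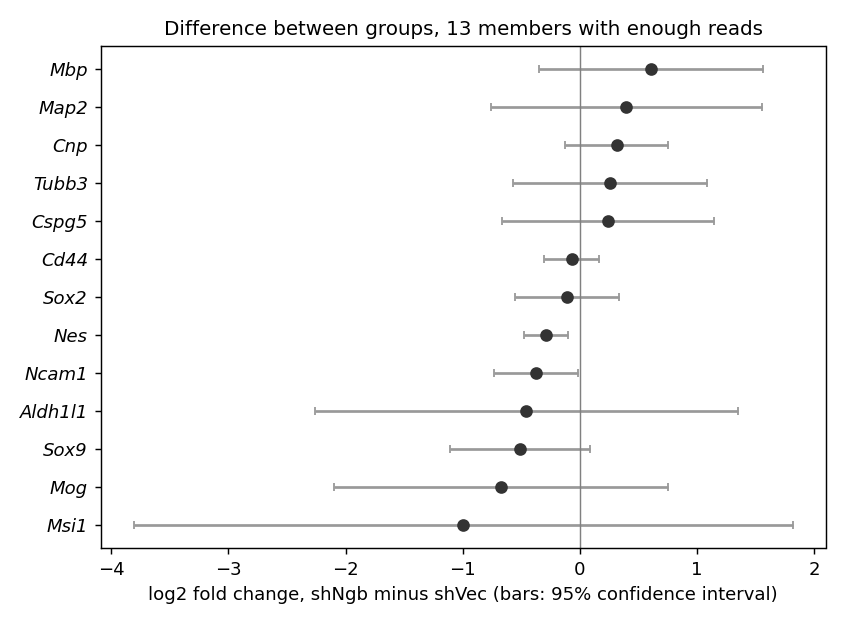
Log2 fold change (shNgb minus shVec) of the 13 tested members with 95% confidence intervals from edgeR; the vertical line is no difference. The intervals of Nes and Ncam1 lie below 0, and that of Msi1 runs from -3.81 to 1.82.

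Markers of other cells varied between tumours. Skeletal muscle and satellite cell markers, 14 genes besides Ncam1, summed to 4.89, 6.20 and 5.58 FPKM in the shNgb tumours, against 5.50, 18.6 and 6.29 FPKM in the shVec tumours. Apart from shVec replicate 2 these sums overlapped between the groups. All 7 tested genes of that list, Ncam1 included, had a negative log2 fold change, and none but Ncam1 passed an unadjusted p of 0.05. Without shVec replicate 2 the log2 fold change was -0.23 for Nes and -0.32 for Ncam1. Myf5 was at 0 in every library, and Pax7, the satellite cell factor, had 2 reads in shVec replicate 2 and none elsewhere. Myod1, of the same list, had 10 reads in shVec replicate 2, 1 in shVec replicate 3 and 0 in every other library. Myf5, Pax7 and Myod1 were named after their values were seen. Macrophage markers summed to 111, 229 and 277 FPKM in the shNgb tumours, against 86.2, 196 and 148 FPKM in the shVec tumours, and the groups overlapped. All 13 tested macrophage genes had a positive log2 fold change, with 1 past an unadjusted p of 0.05. The part of muscle cells and macrophages in the values of Nes and Ncam1 was not tested.

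Markers of nerve and skin were low. Of 18 Schwann cell and peripheral nerve markers, 2 reached 1 FPKM, and the 17 that are no members summed to 4.79 to 5.04 FPKM in shNgb and 5.17 to 5.88 FPKM in shVec tumours. Prx and Egr2 were the 2 at 1 FPKM or more, while Foxd3 and Pmp2 had no read. Of 10 melanocyte markers 1 reached 1 FPKM, Mitf, while Tyr, Dct, Mlana and Slc45a2 had no read. Of 14 keratinocyte markers 3 did, Perp (mean 4.71 FPKM), Krt10 (mean 2.48 FPKM) and Sfn, while Krt5 and Krt1 had no read. Of 11 adipocyte markers 0 reached 1 FPKM. The Schwann cell, melanocyte and keratinocyte genes above were named after their values were seen. Endothelial and pericyte markers (6 of 11 at 1 FPKM or more) summed to 25.5 to 38.9 FPKM in shNgb and 29.1 to 37.3 FPKM in shVec tumours. Fibroblast markers (9 of 12) summed to 144 to 273 FPKM in shNgb and 190 to 221 FPKM in shVec tumours. At an unadjusted p under 0.05, 3 of the 9 tested fibroblast genes were higher in shNgb, against 1.35% of all tested genes. They were the collagen genes Col1a1 (log2 fold change 0.86, SE 0.23) and Col1a2 (0.96, SE 0.31) and the surface protein gene Thy1 (0.68, SE 0.26). Of the 9, 7 were positive and 2 negative. The negative ones were Col3a1 (-0.22, SE 0.36), the most abundant of the list at a mean of 138 FPKM, and Twist2 (-0.03, SE 0.22). All 5 were named after their values were seen, and Col1a1 was called in DESeq2 (adjusted p = 0.0263). T and NK cell markers (4 of 13) summed to 3.17 to 36.7 FPKM in shNgb and 2.92 to 18.1 FPKM in shVec tumours, with a positive log2 fold change in 10 of 10 tested genes. Microglia markers (3 of 9) summed to 15.2 to 20.3 FPKM in shNgb and 11.5 to 15.0 FPKM in shVec tumours, without overlap. The log2 fold change was positive in 6 of 6 tested microglia genes, and 1 passed an unadjusted p of 0.05, Olfml3 (0.72, SE 0.22). Blood cell and platelet markers (5 of 10) summed to 46.1 to 67.1 FPKM in shNgb and 30.8 to 52.8 FPKM in shVec tumours. The fibroblast and pericyte genes include collagens and receptors that the tumour cells may make themselves.

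Further genes of the same identities were unevenly present. Of 24 other neural stem genes, 12 reached 1 FPKM and 7 had no read. The most abundant were Vim, the filament vimentin of progenitors and mesenchymal cells (966 to 1097 FPKM), and Sox4, a SOX factor of progenitors (45.0 to 76.4 FPKM). Pax6, a factor of eye and cortical progenitors, stood at 4.10 to 5.98 FPKM. Other transcription factors of neural progenitors, Sox1, Sox3, Sox21, Nr2e1, Pou3f3 and Zic1, had 0 reads in all 6 tumours. Pax6 and these 6 were named after their values were seen. Of the 13 tested genes 3 were positive and 10 negative, 0 passed an unadjusted p under 0.05, and those of smallest p were Notch1 (log2 fold change 0.28, SE 0.13) and Sox4 (-0.25, SE 0.15).

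Of 20 further astrocyte genes, 12 reached 1 FPKM. In falling order of mean level these were Vim, Cst3, Tnc, Gja1, Apoe, Glul, Sparcl1, Acsbg1, Clu, Ndrg2, Aldoc and Hopx. Host cells may also hold their transcripts, and the share of such cells in the reads was not measured. Besides Vim the most abundant was Cst3, the protease inhibitor cystatin C, with 67.8 ± 4.46 FPKM in shNgb and 57.7 ± 3.53 FPKM in shVec tumours (SD, n = 3 each). Its log2 fold change was 0.24 (SE 0.09; edgeR adjusted p = 0.9997), and it was the 1 gene of the list past an unadjusted p of 0.05, followed by Glul, glutamine synthetase (0.29, SE 0.16). Of the 14 tested, 7 were positive and 7 negative.

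The oligodendrocyte lineage was the emptiest of the further lists, with 3 of 23 genes at 1 FPKM or more and 16 under 10 reads in every library. Cspg4, the proteoglycan NG2 of oligodendrocyte progenitors and pericytes (21.0 to 27.2 FPKM), and Pdgfra, the PDGF receptor of those progenitors and of fibroblasts (3.79 to 7.57 FPKM), led it. Pdgfra had a log2 fold change of 0.41 (SE 0.20). Of 6 tested genes 1 was positive and 5 negative, and 0 passed an unadjusted p under 0.05.

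Of 30 further neuronal genes, 8 reached 1 FPKM, Rest among them, and 15 stayed under 10 reads in every library. Stmn1, stathmin, a microtubule regulator of dividing cells (51.8 to 69.0 FPKM), was highest. Rest, the repressor of neuronal genes outside neurons, stood next at 14.5 to 18.8 FPKM, with a log2 fold change of -0.02 (SE 0.10). It was listed with the neuronal genes although it represses them, and it is counted in all numbers of this list. Elavl4, a neuronal RNA-binding protein (-0.39, SE 0.22), and Nefm, a neurofilament (-0.30, SE 0.26), had the smallest p of the list. Of 13 tested genes 4 were positive and 9 negative, and 0 passed an unadjusted p under 0.05.

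The mesenchymal genes stood in contrast, with 28 of 30 at 1 FPKM or more, against 47.1% of protein-coding genes. The others were Chil1, listed as Chi3l1 (mean 0.686 FPKM, from 0.0542 to 2.21), and Il6 (mean 0.0674 FPKM). The list was chosen with earlier results of these data known. Host cells may also hold the transcripts of this list, and their share of the reads was not measured. Lgals1, galectin 1, had 1532 to 1832 FPKM, above even Vim. Itga5, the fibronectin receptor subunit, had 108 ± 12.04 FPKM in shNgb and 138 ± 2.56 FPKM in shVec tumours (SD, n = 3 each; log2 fold change -0.36, SE 0.09). Fosl2, an AP-1 factor, had 13.7 ± 2.23 FPKM in shNgb and 18.7 ± 2.22 FPKM in shVec tumours (-0.44, SE 0.13). Both had an unadjusted p under 0.05 and an edgeR adjusted p of 0.9997. Of 29 tested genes 11 were positive and 18 negative. Over the 5 lists, which share some genes such as Vim, 0 of 72 distinct tested genes were called, and 2 were lower and 1 higher at an unadjusted p under 0.05, against 1.22% and 1.35% of all tested genes.

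**Figure D5:**
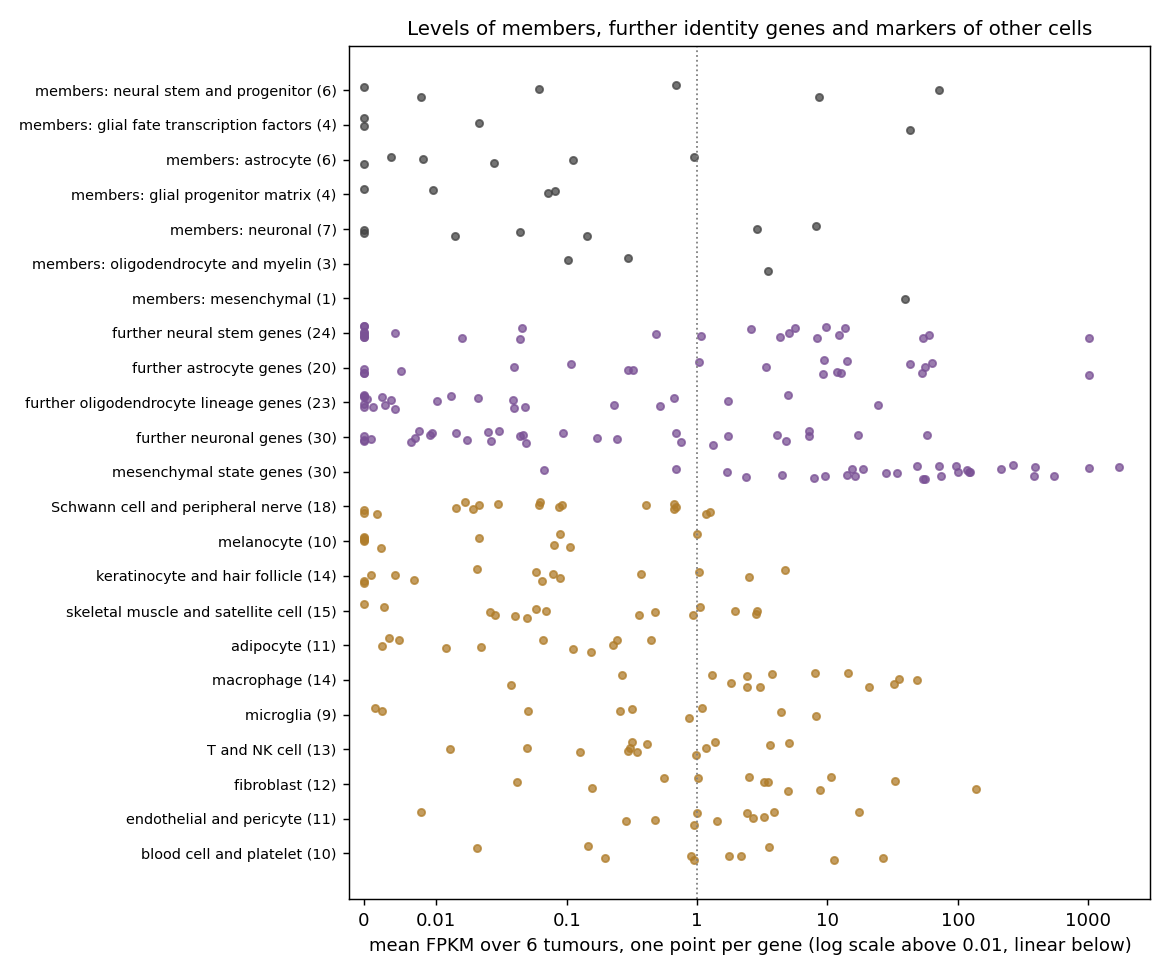
Mean FPKM over the 6 tumours for each gene of the member groups (grey), the 5 further lists (purple) and the 11 lists of markers of other cells (ochre), with the number of genes in brackets and a dotted line at 1 FPKM. The mesenchymal list lies to the right of the line in 28 of 30 genes, while 3 of 23 further oligodendrocyte lineage genes do.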

How the data were processed

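RNA sequencing was run on 6 subcutaneous G422 tumours, 3 labelled shNgb and 3 shVec, grouped by sample title. Per the labels' protocols, tumour RNA was taken up in Trizol and the TruSeq RNA kit, which does not mark strand, gave the libraries. Per the submitters' processing notes, Bowtie 0.12.2 and builds mm8 and mm10 were named without a role. The sources used here name no counting tool or annotation. The authors deposited read counts per Ensembl gene ID, without normalization, and an FPKM value per gene and library. The deposited FPKM were the counts over a factor per gene and one per library, to within a relative 5.3e-09 in 11113 well-counted genes (over 50 reads in each library).

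Symbols, positions and exon lengths came from GENCODE M21 (GRCm38), and 1 list gene was found through a RefSeq synonym. Counts were filtered with the edgeR default, scaled by TMM and tested with the robust quasi-likelihood F-test of edgeR 4.0.16 in R 4.3.3, adjusted by Benjamini-Hochberg over 15203 genes. Standard errors were derived from the F statistic. Pipelines were tested on simulated data. No member had another gene's transcript matching 250 bases at 95% identity (blastn 2.17.0) other than antisense partners of Aldh1l1 and Syp with at most 5 reads. The members, lists and naming rule were chosen with earlier results of these data known. The rule named all members and, from each further list, the 2 genes of highest FPKM and the 2 of smallest p, of which 1 is not reported here. Alternatives were RLE and upper quartile scaling, other filters, blocking by replicate number, DESeq2 1.42.0, voom from limma 3.58.1, other detection limits, CPM per kilobase and leaving out each library.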

Additional observations from a re-analysis of the deposited data

How the results depend on the processing

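No member passed an adjusted p of 0.05 under any alternative fit tried, where the lowest adjusted p of a member was 0.714. Over all genes, the 0 calls of edgeR became 3 without the filter beyond 1 read, 5 in DESeq2 and 1 with the replicate number as a block, none of them members, and stayed at 0 under the other scalings, the strict filter, limma-voom, an adjusted p under 0.1 and each left-out library. At an unadjusted p under 0.05 stood 392 genes in edgeR, 832 without the filter, 426 with the block, 477 in DESeq2 and 428 in limma-voom. Same-numbered tumours had correlations of deviations from their group means of 0.257, -0.145 and -0.0987, so the numbers were not taken as pairs. The median log2 fold change of the tested members, -0.11, was -0.20 with the strict filter, which tested 10 members, and ran from -0.330 to -0.0423 with 1 library left out. Nes stayed negative, at -0.34 to -0.23, and Ncam1 at -0.53 to -0.28. With the block the unadjusted p was 0.0197 for Nes, 0.0772 for Ncam1 and 0.0142 for Sox9, against 0.0822 for Sox9 without it. With 1 library left out, Msi1 ran from -2.71 to -0.40, Sox9 from -0.71 to -0.29, Mog from -1.17 to -0.20, Cspg5 from 0.03 to 0.57 and Mbp from 0.39 to 1.05. The sign changed in 5 members when 1 library was left out: Sox2 ran from -0.352 to 0.0249, Aldh1l1 from -0.92 to 0.76, Tubb3 from -0.26 to 0.47, Map2 from -0.44 to 0.69 and Cd44 from -0.18 to 0.0110. These changes came without shNgb replicate 3 (Sox2, Tubb3), shNgb replicate 2 (Map2, Cd44) and shVec replicate 1 (Aldh1l1), and the cause was not tested. The number of members detected was 7 at 1 FPKM, 11 with at least 10 reads in every library and 13 at 0.1 FPKM. Mean levels as CPM per kilobase moved by no more than the spread between tumours in all 31 members. Both measures divide the same counts by a factor per gene and one per library, so they could differ little. Depth limits the 18 untested members to a statement of few or no reads.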

Other observations

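Reads of Fabp7 and Ncan lay mostly in 1 tumour, while those of S100b, Bcan, Cspg5 and Mbp were spread over all 6. Of the 11 Fabp7 reads over all libraries 8 came from shNgb replicate 2, as did 9 of the 10 Ncan reads, and that tumour was also the highest in Map2 and Sox2. Among 15 further astrocyte genes with at least 10 reads in some library, 7 were highest in shNgb replicate 2 (46.7%), where 17.5% of all tested genes were. In the same tumour stood the highest values of 3 of 15 members, 3 of 15 further neural stem genes, 3 of 15 further neuronal genes, 0 of 7 oligodendrocyte lineage genes and 2 of 29 mesenchymal genes. For shNgb replicate 3 the counts were 5 of 15 members, 1 of 15 neural stem, 2 of 15 astrocyte and 3 of 15 neuronal genes. They were 1 of 7 oligodendrocyte lineage and 11 of 29 mesenchymal genes, against 21.9% of all tested genes. A gene could enter these counts through the tumour in which it was high. All tested genes had passed another filter, that of edgeR, so the shares are a description without a test. Sparcl1, a secreted matrix protein of astrocytes, had 10.997, 23.1 and 6.21 FPKM in the shNgb tumours, against 13.4, 10.4 and 11.6 in the shVec tumours. Apoe, the lipid carrier of astrocytes and macrophages, had 30.8, 87.1 and 14.9 FPKM in the shNgb tumours, against 38.2, 55.2 and 33.3 in the shVec tumours. These genes were chosen after their values were seen, and shNgb replicate 2 is 1 tumour of its group.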
